A study of Homo sapiens with 6 samples.

Results

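Cyclins are the regulatory subunits that switch cyclin-dependent kinases (CDKs) on, and most of them are made and destroyed once in each cell cycle. The 10 cyclin genes described here were chosen by name, not by a rule on their values, from the 16655 genes of the table. Earlier results of these libraries were known when they were chosen. They are the D cyclins CCND1, CCND2 and CCND3 of G1, the E cyclins CCNE1 and CCNE2 of the G1/S transition, CCNA2, CCNB1 and CCNB2 of S phase to mitosis, CCNG2, and CCNL1. All 10 were present and passed the filter on low counts. D cyclins bind CDK4 and CDK6 and start the phosphorylation of the retinoblastoma protein. E cyclins and cyclin A bind CDK2, and B cyclins bind CDK1 and drive entry into mitosis. CCNG2 is an unconventional cyclin that is high in arrested cells, and CCNL1 binds CDK11 and acts in splicing. As background, the large T antigen of HEK-293T cells binds the retinoblastoma protein, so the G1 control by D cyclins is already loosened in this line.

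RNA-seq was carried out on HEK-293T cells, a line from human embryonic kidney that carries the SV40 large T antigen, 24 h after lipofection. The control group received the empty pEGFP-C1 vector, so that these cells made GFP alone (GFP, n = 3 libraries). The other group received the same vector with reflectin A1, a squid protein of reflective cells, fused to GFP (RfA1, n = 3 libraries). The comparison asks how the transcripts of HEK-293T cells differ when RfA1 is expressed. The transfection was transient, the share of cells that carried the plasmid is not stated for the sequenced cultures, and plasmid transcripts were not analysed here. No label says whether the libraries of a group came from separate cultures, so p-values measure the spread between these libraries, which may be technical.

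The libraries held 10272306 to 11566284 estimated counts. On principal component analysis 44.6% of the variance between libraries fell on the first axis, whose loadings followed the GC content of the transcripts (Spearman's rho of 0.74 across genes, which are not independent replicates). There, RfA1 replicate 2 (10.1) grouped with GFP replicates 2 and 3 (18.2 and 12.3), away from RfA1 replicates 1 and 3 (-16.5 and -22), and GFP replicate 1 lay near 0 (-2.18). The log2 fold change of a gene was also related to its GC content (Spearman's rho of -0.539 across genes). The median GC content was 43.8% for the cyclins and 48.7% for all tested genes. Where leaving out RfA1 replicate 2 or correcting for GC content changed a call, turned the sign or moved a value by over 1.5 times, those values are given with the result. Of the markers used to check the line, VIM was at 578 to 724 TPM, NEFM at 48.7 to 66.2 TPM, NEFL at 42.7 to 51.7 TPM and PAX2 at 3.43 to 6.16 TPM. PAX8, a renal marker, was nearly absent with at most 0.04 TPM. PTPRC of leukocytes and CDH5 of endothelium were each at most 0.03 TPM. All libraries came from 1 line, and no label gives a batch.

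Tested with edgeR's quasi-likelihood model, 0 of the 10 cyclins passed the threshold, a Benjamini-Hochberg adjusted p under 0.05, against 10 of 13002 genes, a background of 0.0769%. DESeq2 and limma-trend also called 0 of the 10 cyclins. All but CCND3, 9 of the 10, had a positive log2 fold change, as did 49.5% of all tested genes. Their median was 0.16, against -0.0024 for all tested genes, and after the GC correction 0.090 against 0.0064. CCNE2, CCNL1 and CCND2 had an unadjusted p under 0.05 and were higher in RfA1, which is 3 of 10 genes against 7.3% of all tested genes. After the GC correction these were CCNE2, CCND1 and CCNE1, against 9.28% of all tested genes, so CCNE2 was the 1 gene in both sets. The CPM of CCND1, CCND2, CCNE2 and CCNL1 in each RfA1 library exceeded those in each GFP library, which is 4 of 10 genes against 9.86% of all tested genes. CPM here are counts scaled to a TMM-normalized library size of 1000000. In bulk RNA a change in the share of cells that are in a given phase and a change in transcript per cell cannot be told apart. The cyclins were chosen with earlier results of these libraries known, so these counts describe the genes and support no more.

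**Figure D1:**
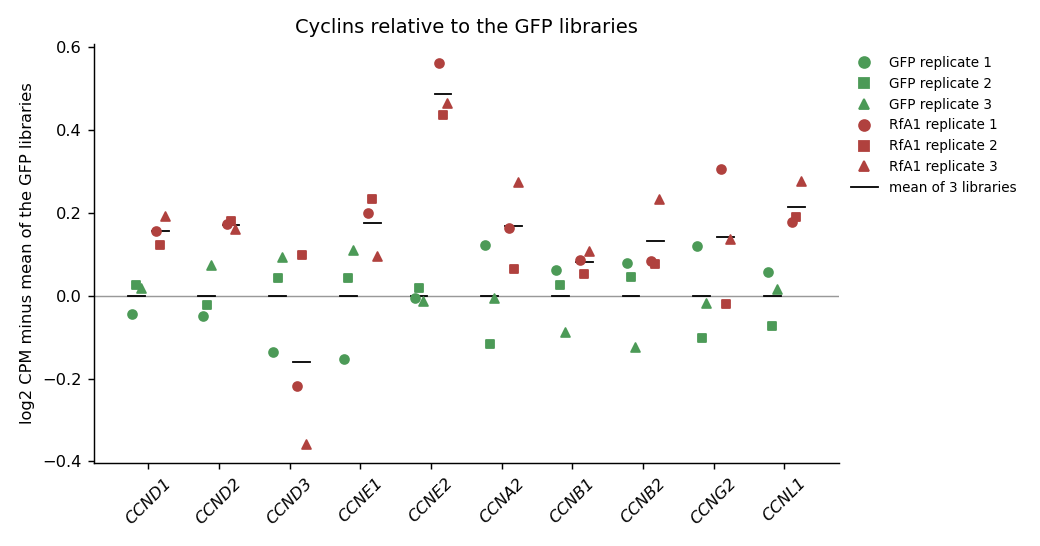
Log2 CPM of each cyclin minus the mean of the GFP libraries (y axis) for the 10 genes (x axis). Green symbols are GFP libraries and red symbols RfA1 libraries, with circles, squares and triangles for replicates 1, 2 and 3, and the bars are group means. CCNE2 stands clear, with the RfA1 libraries between 0.43 and 0.56, and CCND3 is the gene whose RfA1 mean lies below 0.

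The levels of the cyclins were compared as TPM, which are scaled by transcript length. CCNB1 was the most abundant, at 121.9 to 150.2 TPM over the 6 libraries, and CCNG2 the least, at 7.46 to 13.2 TPM. CCNB1 was followed by CCNL1 (84.7 to 119.4 TPM), CCNB2 (70.0 to 96.5 TPM) and CCNA2 (58.2 to 84.6 TPM). CCND3 (45.1 to 57.4 TPM) and CCND1 (43.5 to 54.2 TPM) came next, then CCNE1 (21.5 to 29.0 TPM), CCND2 (17.3 to 21.9 TPM) and CCNE2 (10.6 to 16.9 TPM). Most neighbours in this order kept it in 6 of 6 libraries, also where their ranges overlapped. The exception was CCND3, which exceeded CCND1 in 4 of 6 libraries, so that these neighbours do not differ beyond their spread.

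**Figure D2:**
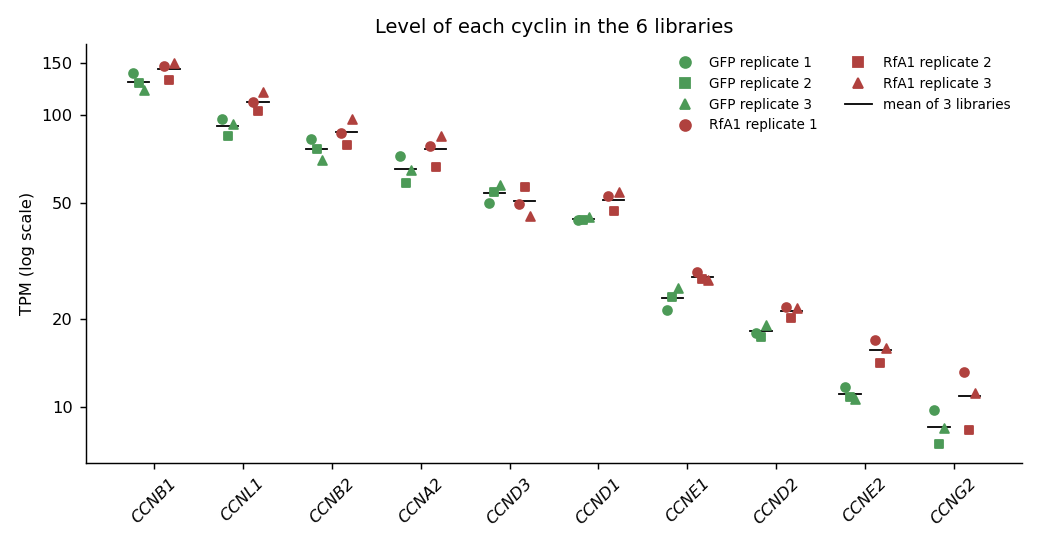
TPM of the 10 cyclins (y axis, log scale) in order of their mean over the 6 libraries (x axis). Green symbols are GFP and red symbols RfA1 libraries, with circles, squares and triangles for replicates 1, 2 and 3, and the bars are group means. CCNB1 lies at the top with 121.9 to 150.2 TPM and CCNG2 at the bottom with 7.46 to 13.2 TPM.

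Among the D cyclins, CCND1 and CCND2 were higher in each RfA1 library and CCND3 was not, and none of them passed the test. CCND1 (Gene ID 595), the D cyclin best known as a target of growth factor signalling, had 124.3, 130.4 and 129.7 CPM in GFP replicates 1, 2 and 3 and 142.7, 139.4 and 146.3 CPM in RfA1 replicates 1, 2 and 3. Every RfA1 library was above every GFP library. The group means were 128.2 ± 3.34 and 142.8 ± 3.45 CPM (SD, n = 3 each). CCND1 had a log2 fold change of 0.16 (SE 0.074, adjusted p = 0.374 in edgeR), with a 95% interval of -0.0068 to 0.32. The GC correction left it at 0.16 (adjusted p = 0.154).

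CCND2 (Gene ID 894) had 79.9, 81.4 and 87.1 CPM with GFP alone, against 93.2, 93.7 and 92.4 CPM with RfA1. Again the groups did not overlap. The RfA1 libraries lay closer together than the GFP libraries, with a coefficient of variation of 0.689% against 4.57%. With so few libraries this difference in spread was not tested. CCND2 had a log2 fold change of 0.17 (SE 0.077, adjusted p = 0.354 in edgeR), with a 95% interval from 0.0023 to 0.34.

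CCND3 (Gene ID 896) had 62.4, 70.8 and 73.3 CPM with GFP alone, against 59.0, 73.5 and 53.6 CPM with RfA1. The highest and the lowest of the 6 values both came from RfA1 libraries, replicates 2 and 3. Its log2 fold change was -0.15 (SE 0.12, adjusted p = 0.556 in edgeR), with a 95% interval of -0.41 to 0.11. Without RfA1 replicate 2 it was -0.29 and passed (adjusted p = 0.0302), in a fit that called 20.1% of all tested genes. The GC correction gave -0.065 (adjusted p = 0.732). With 56.2%, CCND3 had the highest GC content of the 10 cyclins, and it was low in RfA1 replicates 1 and 3 and GFP replicate 1, the same libraries that lay lowest on the first principal axis. The part of GC content in this difference was not tested beyond that correction.

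The D cyclins together amounted to 115.9 ± 4.89 TPM in GFP and 122.8 ± 1.48 TPM in RfA1 cells (SD, n = 3 each), a ratio of 1.06. CCND3 made up 44.8%, 47.1% and 47.4% of this sum with GFP alone, against 40.0%, 45.9% and 37.2% with RfA1. CCND1 made up 39.2%, 37.8% and 36.8% in GFP and 42.4%, 37.9% and 44.7% in RfA1 libraries. CCND3 was thus the larger share in each GFP library and in RfA1 replicate 2, and CCND1 in RfA1 replicates 1 and 3. TPM ran slightly higher in RfA1 libraries for genes at large, with a median log2 fold change of 0.045 over all tested genes in limma-trend. The ratio of 1.06 includes that offset.

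**Figure D3:**
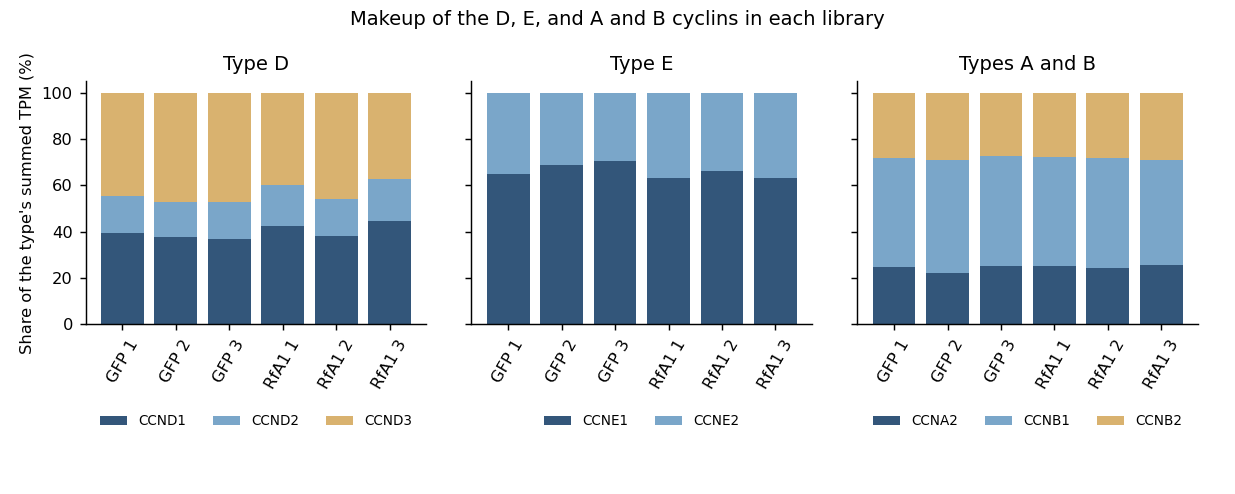
Share of each gene in the summed TPM of its cyclin type (y axis, %) in each of the 6 libraries (x axis), for the D cyclins, the E cyclins, and the A and B cyclins. CCND3 (top of the left panel) takes 44.8% to 47.4% in the GFP libraries and 37.2% to 45.9% in the RfA1 libraries, whereas the shares of CCNA2, CCNB1 and CCNB2 stay within 22.2% to 25.6%, 45.3% to 48.8% and 27.3% to 29.1%.

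The largest difference of the 10 genes was that of CCNE2. CCNE2 (Gene ID 9134) is one of the pair of E cyclins and a target of E2F factors, and it drives CDK2 at the start of DNA replication. It had 19.0, 19.3 and 18.9 CPM with GFP alone, against 28.2, 25.8 and 26.4 CPM with RfA1, from estimated counts of 211 to 219 and 271 to 310. The lowest RfA1 library was well above the highest GFP library. The GFP libraries were nearly identical, but 3 libraries are too few to judge the spread. The means were 19.1 ± 0.229 CPM with GFP and 26.8 ± 1.25 CPM with RfA1 (SD, n = 3). This is a 1.41-fold higher level, with a 95% interval from 1.22 to 1.63. CCNE2 had a log2 fold change of 0.49 (SE 0.096), and its unadjusted p of 0.000269 in edgeR ranked 21 of 13002 genes. Over all tested genes its adjusted p was 0.156 and did not pass.

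The call on CCNE2 depended on the libraries and on the correction, whereas its direction did not. Leaving out 1 library at a time gave log2 fold changes of 0.45 to 0.52. It passed without RfA1 replicate 2 (adjusted p = 0.00355) and in none of the other 5 fits of this kind. Corrected for GC content, it had 0.37 and passed (adjusted p = 0.0489 in edgeR), in a fit that called 1.48% of all tested genes. CCNE2 has a low GC content of 36.9%. Over all 16 alternatives the log2 fold change lay between 0.37 and 0.52, and its adjusted p between 0.00355 and 0.663.

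CCNE1 (Gene ID 898), the other E cyclin, had 25.6, 29.4 and 30.8 CPM with GFP alone, against 32.8, 33.6 and 30.5 CPM with RfA1. RfA1 replicate 3 fell below GFP replicate 3, so that the groups overlapped in CPM. In TPM they did not overlap, with 21.5 to 25.5 in GFP and 27.1 to 29.0 in RfA1 libraries. TPM ran slightly higher in RfA1 for all tested genes, with a median of 0.045 in limma-trend on log2(TPM + 1), against -0.0024 in edgeR. The share of all genes without overlap in TPM was not counted. CCNE1 had a log2 fold change of 0.17 (SE 0.10, adjusted p = 0.445 in edgeR), with a 95% interval of -0.048 to 0.39. With the GC correction this became 0.22 (adjusted p = 0.200). CCNE1 and CCNE2 thus both had positive values, and the difference between their fold changes was not tested. The sum of the E cyclins was 33.2, 34.6 and 36.2 TPM with GFP alone, against 45.9, 41.5 and 43.0 TPM with RfA1. These sums did not overlap, and they include the same offset of TPM. The ratio of CCNE2 to CCNE1 TPM was 0.47 ± 0.064 in GFP and 0.56 ± 0.039 in RfA1 cells (SD, n = 3 each), and GFP replicate 1, with 0.54, lay within the RfA1 range.

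The cyclins of S phase to mitosis were the most abundant type, and none of them passed the test. CCNA2 (Gene ID 890), which acts in S phase and G2, had 128.8, 109.0 and 117.8 CPM with GFP alone, against 132.4, 123.7 and 142.9 CPM with RfA1. GFP replicate 1 exceeded RfA1 replicate 2. CCNA2 had a log2 fold change of 0.17 (SE 0.090, adjusted p = 0.418 in edgeR), with a 95% interval of -0.030 to 0.36.

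CCNB1 (Gene ID 891), the main mitotic cyclin, had 174.9, 170.3 and 157.5 CPM with GFP alone, against 177.7, 173.5 and 180.4 CPM with RfA1. Its log2 fold change of 0.081 (SE 0.078, adjusted p = 0.635 in edgeR) was the smallest of the 10 in size. The 95% interval of the fold was 0.940 to 1.19, so a difference of more than 1.19-fold lay outside it. The GC-corrected value of CCNB1 was 0.013 (adjusted p = 0.947).

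CCNB2 (Gene ID 9133), the B cyclin found at the Golgi apparatus, had 72.2, 70.5 and 62.8 CPM with GFP alone, against 72.4, 72.2 and 80.4 CPM with RfA1. RfA1 replicate 3 was high, and the other RfA1 libraries were close to GFP replicate 1. CCNB2 had a log2 fold change of 0.13 (SE 0.089, adjusted p = 0.502 in edgeR), with a 95% interval of -0.063 to 0.32.

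CCNA2, CCNB1 and CCNB2 kept their proportions. CCNB1 took 45.3% to 48.8%, CCNB2 27.3% to 29.1% and CCNA2 22.2% to 25.6% of their summed TPM over the 6 libraries. The sum was 293.0, 262.2 and 256.7 TPM with GFP alone, against 311.4, 275.9 and 331.3 TPM with RfA1. GFP replicate 1 was above RfA1 replicate 2, and so the groups overlapped.

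The promoters of CCNA2, CCNB1 and CCNB2 are shown as a description, and that of CCNL1 because it had the second smallest p of the 10 genes. The transcripts of CCNA2, CCNB1 and CCNB2 had similar GC contents, 42.1%, 43.2% and 44.4%. Whether promoters or GC content bear on their even proportions was not tested. Each sequence is the 150 bases before the start site of transcription in RefSeq, 5′ to 3′ on the strand of the gene, in build GRCh38.p14. Capitals mark CCAAT, the cyclic AMP response element TGACGTCA and the letters TTTGAA of the cell cycle genes homology region, searched on both strands. No 2 matches overlapped. CCNA2 lies on the minus strand at chr4:121823884-121824033, CCNB1 on the plus strand at chr5:69167000-69167149, CCNB2 on the plus strand at chr15:59104996-59105145 and CCNL1 on the minus strand at chr3:157160148-157160297.
CCNA2: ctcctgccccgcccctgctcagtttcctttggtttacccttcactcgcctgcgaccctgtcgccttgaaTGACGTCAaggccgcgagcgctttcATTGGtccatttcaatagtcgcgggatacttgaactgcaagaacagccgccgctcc
CCNB1: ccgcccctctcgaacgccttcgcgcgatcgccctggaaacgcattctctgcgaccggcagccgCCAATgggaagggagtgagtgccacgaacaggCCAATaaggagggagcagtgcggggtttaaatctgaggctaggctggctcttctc
CCNB2: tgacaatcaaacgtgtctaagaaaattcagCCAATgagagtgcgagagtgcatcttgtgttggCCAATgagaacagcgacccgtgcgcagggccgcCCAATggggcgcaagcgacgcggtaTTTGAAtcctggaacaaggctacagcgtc
CCNL1: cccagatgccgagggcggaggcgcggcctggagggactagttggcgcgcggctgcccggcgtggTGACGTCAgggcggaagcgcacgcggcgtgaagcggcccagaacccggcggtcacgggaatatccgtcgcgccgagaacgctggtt

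CCAAT was found once in the CCNA2 window, at -56 on the opposite strand, at -87 and -55 in CCNB1, and at -120, -87 and -54 in CCNB2. Among 35116 promoter windows of the same length 23.5% held it. Both B cyclins thus held more than 1 match to CCAAT, the letters known as the site of NF-Y, and those of CCNB2 were evenly spaced. The share of windows with several matches or with such spacing was not counted. TTTGAA was found in CCNB2 at -29, and in 7.33% of all windows. Only these exact letters were searched, so windows without a match may hold other forms of the homology region. TGACGTCA was found in CCNA2 at -81 and in CCNL1 at -86, and in 1.4% of all windows. CCAAT was also found in CCND3, at -136 in one window and at -64 on the opposite strand in another, and CCND3 was the cyclin with the negative fold change. These are matches of letters, and no binding was measured. Promoter windows were used for 7 of the 10 cyclins, and the windows of CCND3, CCNE1 and CCNG2 are not printed. Those of CCND1, CCND2 and CCNE2 were not searched, so nothing is said on their promoters.

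Of the remaining members, CCNL1 was higher in each RfA1 library and CCNG2 overlapped between the groups, and neither passed the test. CCNL1 (Gene ID 57018) had 153.9, 140.5 and 149.6 CPM with GFP alone, against 167.2, 168.6 and 179.2 CPM with RfA1. The groups did not overlap, with means of 148.0 ± 6.84 and 171.7 ± 6.58 CPM (SD, n = 3 each). CCNL1 had a log2 fold change of 0.21 (SE 0.078, adjusted p = 0.294 in edgeR), with a 95% interval from 0.043 to 0.39. It passed without RfA1 replicate 2 (log2 fold change of 0.23, adjusted p = 0.0342), in the fit that called 20.1% of all tested genes. CCNL1 had the lowest GC content of the 10 cyclins, 35.2%, and correcting for GC content gave 0.090 (adjusted p = 0.509).

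CCNL2, the close relative of CCNL1, had 279.4, 280.3 and 279.8 CPM with GFP alone, against 246.1, 292.9 and 242.1 CPM with RfA1. Its log2 fold change was -0.10 (SE 0.088, adjusted p = 0.588 in edgeR), and without RfA1 replicate 2 it was -0.20 (adjusted p = 0.0447). The ratio of CCNL1 to CCNL2 TPM, chosen after the values were seen, was 0.74, 0.74 and 0.78 with GFP alone, against 0.91, 0.88 and 1.02 with RfA1, without overlap. CCNL2 has a GC content of 50.8%, against 35.2% for CCNL1. CDK11A and CDK11B, which encode near-identical partners of L cyclins and whose reads are hard to assign, had log2 fold changes of -0.22 and -0.25 (adjusted p = 0.377 and 0.380 in edgeR). Without RfA1 replicate 2 these were -0.33 and -0.42 (adjusted p = 0.0124 and 0.00182), and after the GC correction -0.15 and -0.16 (adjusted p = 0.308 for both).

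CCNG2 (Gene ID 901) had 20.7, 17.7 and 18.8 CPM with GFP alone, against 23.6, 18.8 and 21.0 CPM with RfA1. RfA1 replicate 2 lay within the GFP range, and the value depended on single libraries, with a log2 fold change of 0.057 without RfA1 replicate 1 and 0.22 without RfA1 replicate 2. CCNG2 had a log2 fold change of 0.15 (SE 0.12, adjusted p = 0.565 in edgeR), and with 197 to 259 counts per library its 95% interval ran from -0.11 to 0.40. CCNG1, the other G cyclin and a target of p53, had 123.2 ± 9.19 CPM with GFP and 147.5 ± 16.9 CPM with RfA1 (SD, n = 3), a log2 fold change of 0.26 (adjusted p = 0.307 in edgeR). The GC correction reduced it to 0.15 (adjusted p = 0.209), and CCNG1 passed without RfA1 replicate 2 with 0.35 (adjusted p = 0.00562). CCNF, the F-box cyclin, had 94.1 ± 2.18 and 88.7 ± 11.0 CPM (SD, n = 3 each), a log2 fold change of -0.085 (adjusted p = 0.694 in edgeR). The sign of CCNF turned with the GC correction, to 0.021, and without RfA1 replicate 2 it was -0.16 (adjusted p = 0.171).

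**Figure D4:**
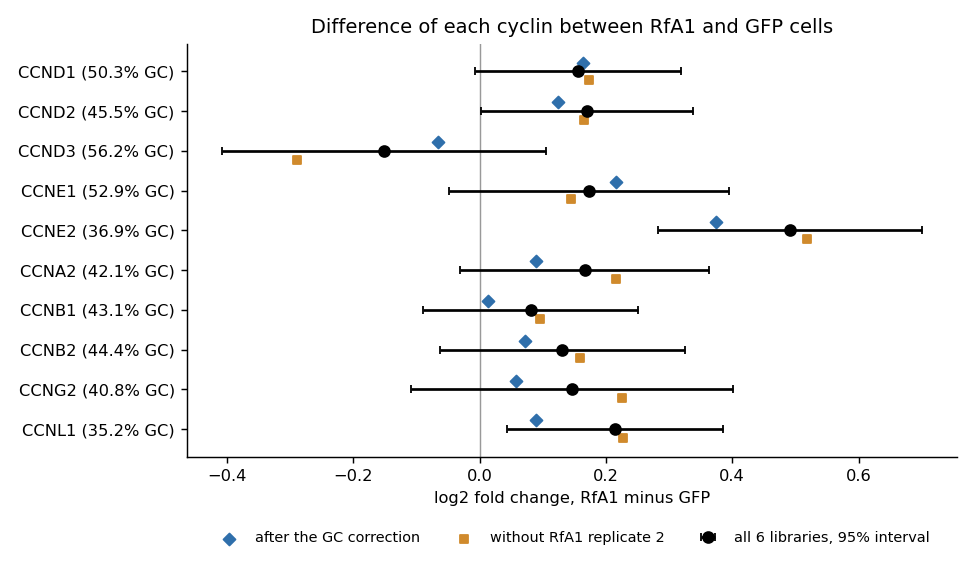
Log2 fold change of each cyclin, RfA1 minus GFP (x axis), with the GC content of its transcript beside the name (y axis). Black points with bars are estimates and 95% intervals from all 6 libraries, blue diamonds are values after the GC correction and orange squares are values without RfA1 replicate 2. CCNE2 lies highest, at 0.49, 0.37 and 0.52 in that order, and CCND3 is the only gene below 0 in the 3 fits shown.

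Across the 10 cyclins the log2 fold change and the GC content of the transcript had a Pearson's r of -0.682, given as a description of genes that share the same 6 libraries. The GC correction moved CCNA2, CCNB1, CCNB2, CCNG2, CCNL1, CCND2 and CCNE2 down, to 0.090, 0.013, 0.072, 0.058, 0.090, 0.12 and 0.37. It moved CCND1, CCNE1 and CCND3 up, to 0.16, 0.22 and -0.065. CCNE2 was the 1 cyclin called after it.

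The genes around the cyclins were followed in 10 lists, written from general knowledge, with 163 distinct genes tested. Of the 163, 0 passed the threshold in edgeR, DESeq2 or limma-trend. At an unadjusted p under 0.05 edgeR gave 20 higher and 10 lower genes, DESeq2 18 and 7, and limma-trend 25 and 6. The background at that p was 7.3% higher and 6.64% lower in edgeR, 5.08% and 4.9% in DESeq2, and 8.44% and 4.29% in limma-trend, where all genes had a median of 0.045. In edgeR the median of the 163 log2 fold changes was 0.052, against -0.0024 for all tested genes, and after the GC correction 0.019 against 0.0064. Without RfA1 replicate 2, 23 of them passed the adjusted p as higher and 21 as lower, where 8.56% and 11.5% of all tested genes did. After the GC correction 2 passed as higher and 1 as lower, where 1.08% and 0.4% of all tested genes did. These fits were tallied for 35 genes named from the lists, CDKN2A not among them. Of the 35, 25 passed without RfA1 replicate 2, where 20.1% of all tested genes did. After the GC correction 3 passed, where 1.48% of all tested genes did, and 10 of the values became over 1.5 times smaller. Most of the 35 were chosen for a small p in the same libraries and others after their values were seen. The counts of passing genes therefore follow in part from that choice.

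Of the 17 other cyclins tested, CCNH, CCNC, CCNG1 and CCNJ were higher and CCNB3 lower at an unadjusted p under 0.05. CCNH, the cyclin of the CDK-activating kinase, was at a log2 fold change of 0.27 (adjusted p = 0.278 in edgeR), and CCNC, the cyclin of the Mediator kinase module, of 0.31 (adjusted p = 0.278). CCNJ and CCNB3 had 0.32 and -0.48 (adjusted p = 0.307 and 0.339). With the GC correction CCNH was at 0.15 (adjusted p = 0.362). CCNC and CCNJ passed without RfA1 replicate 2, with 0.38 and 0.40 (adjusted p = 0.0110 and 0.0205). Of the partner kinases, CDK1 had 92.8, 82.2 and 88.5 CPM with GFP alone, against 99.6, 100.3 and 103.9 CPM with RfA1, without overlap. Its log2 fold change was 0.21 (SE 0.080, adjusted p = 0.313 in edgeR), and 0.093 after the GC correction (adjusted p = 0.519), and it did not pass without RfA1 replicate 2 (adjusted p = 0.0576). CDK2, CDK4 and CDK6 had log2 fold changes of 0.17, -0.030 and 0.060 (adjusted p = 0.392, 0.865 and 0.777 in edgeR). The signs of CDK4 and CDK6 turned with the GC correction, to 0.021 and -0.040. CDK2 passed without RfA1 replicate 2, with 0.24 (adjusted p = 0.0316), and there CDK6 was at 0.13 (adjusted p = 0.244). The 20 CDK genes tested held 1 gene higher and 3 lower at an unadjusted p under 0.05, and CDK20 and CDK10 had -0.30 and -0.23 (adjusted p = 0.279 and 0.337). Both passed without RfA1 replicate 2, with -0.37 and -0.31 (adjusted p = 0.0222 and 0.0175).

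Among the 8 CDK inhibitors, CDKN1A and CDKN1B were higher and 0 were lower at an unadjusted p under 0.05. CDKN2A went the other way, with 459.8, 532.8 and 517.8 CPM with GFP alone, against 369, 519.4 and 362.6 CPM with RfA1. RfA1 replicate 2 lay within the GFP range. Its lowest values came from RfA1 replicates 3 and 1 and GFP replicate 1, the libraries that lay lowest on the first principal axis. With the replicate number as a block CDKN2A was at -0.29 and passed (adjusted p = 0.0388 in edgeR), in a fit that called 4.81% of all tested genes. After the GC correction without the block, 0 of the 8 inhibitors were lower at an unadjusted p under 0.05 in edgeR. Without RfA1 replicate 2, 1 of the 8 inhibitors passed as higher and 1 as lower. CDKN1A, which encodes p21, an inhibitor of CDK2 complexes and a target of p53, had 21.8, 26.9 and 28.3 CPM with GFP alone, against 33.5, 32.7 and 33.5 CPM with RfA1. The groups did not overlap. CDKN1A had a log2 fold change of 0.37 (SE 0.11, adjusted p = 0.250 in edgeR). It passed with 0.49 when corrected for GC content (adjusted p = 0.00985), and without RfA1 replicate 2 it was 0.38 (adjusted p = 0.0206). Unlike CCNE2, CDKN1A has a high GC content, 58.1%. CDKN1B, which encodes p27, was at a log2 fold change of 0.24 (adjusted p = 0.278 in edgeR).

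Of the 28 genes of cyclin degradation, 3 were higher and 2 lower at an unadjusted p under 0.05. FBXW7, the F-box protein that targets cyclin E for destruction, had 24.8, 25.9 and 21.8 CPM with GFP alone, against 33.6, 30.8 and 36.8 CPM with RfA1. These groups did not overlap either. FBXW7 had a log2 fold change of 0.48 (SE 0.11, adjusted p = 0.175 in edgeR). With the GC correction it was 0.44 and also passed (adjusted p = 0.0160), and without RfA1 replicate 2 it was 0.54 (adjusted p = 0.00284). FBXO5 and CUL1 had log2 fold changes of 0.25 each (adjusted p = 0.278 for both). Corrected for GC content they had 0.12 and 0.19 (adjusted p = 0.339 and 0.0955), and without RfA1 replicate 2 both passed, with 0.31 and 0.28 (adjusted p = 0.0114 and 0.0142). The transcripts of CCNE2 and of FBXW7 were both higher in all 3 RfA1 libraries, and protein levels were not measured by this assay.

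The 21 E2F, pocket protein and MuvB genes held 2 higher and 2 lower at an unadjusted p under 0.05. LIN37, a subunit of the MuvB core, was at a log2 fold change of -0.43 (adjusted p = 0.221 in edgeR), and E2F6 and LIN9 had 0.29 and 0.31 (adjusted p = 0.286 and 0.290). Without RfA1 replicate 2 these genes passed, LIN37 with -0.50, E2F6 with 0.35 and LIN9 with 0.40 (adjusted p = 0.0113, 0.0217 and 0.00752). RB1, which encodes the retinoblastoma protein and is named because it passed after the GC correction, had -0.18 (adjusted p = 0.449) and after the correction -0.30 (adjusted p = 0.0489). RB1 was at -0.091 without RfA1 replicate 2 (adjusted p = 0.536). Of the 11 kinases and phosphatases that act on CDKs, 2 were higher and 1 lower at an unadjusted p under 0.05. PKMYT1, an inhibitory kinase of CDK1, had 181.8 ± 18.9 CPM with GFP and 137.6 ± 23.6 CPM with RfA1 (SD, n = 3), a log2 fold change of -0.40 (adjusted p = 0.253 in edgeR). MNAT1, the assembly factor of CDK7 and CCNH, had 0.31 (adjusted p = 0.254). The GC correction reduced these to -0.22 and 0.20 (adjusted p = 0.0635 and 0.187). Both passed without RfA1 replicate 2, PKMYT1 with -0.55 and MNAT1 with 0.37 (adjusted p = 0.000812 and 0.0132).

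The medians of the phase lists lay nearer to 0 than that of the cyclins, 0.16. The median of the kinases and phosphatases that act on CDKs was 0.17, similar to that of the cyclins. After the GC correction it was 0.084, against 0.090 for the cyclins. The 20 G1/S genes had a median log2 fold change of -0.010 and 2 genes higher at an unadjusted p under 0.05, SLBP with 0.21 and UNG with 0.19 (adjusted p = 0.294 and 0.316 in edgeR). The third by p was GINS2 with -0.18 (adjusted p = 0.380). UNG and GINS2 passed without RfA1 replicate 2, with 0.21 and -0.24 (adjusted p = 0.0495 and 0.0401). The 24 G2/M genes had a median of 0.056, with 2 higher and 1 lower at that p, and after the GC correction a median of 0.019, with 1 higher and 1 lower. ANLN had 0.24 and CDC20 -0.23 (adjusted p = 0.292 and 0.325 in edgeR). The GC correction gave 0.14 and -0.12 (adjusted p = 0.246 and 0.310), and both passed without RfA1 replicate 2, with 0.31 and -0.33 (adjusted p = 0.00728 and 0.00423). The 13 genes of cyclin L partners and splicing kinases had 2 higher and 0 lower at an unadjusted p under 0.05, SRPK1 with 0.22 and CLK1 with 0.26 (adjusted p = 0.294 and 0.349). These counts became 1 higher and 4 lower after the GC correction, where 2076 of 13002 genes had such a p in either direction. CLK1 was there at 0.14 (adjusted p = 0.385). Without RfA1 replicate 2 the counts were 2 higher and 5 lower, where 4580 of 13129 genes had such a p. In that fit SRPK1 and CLK1 passed with 0.27 and 0.34 (adjusted p = 0.0127 and 0.0285). Of the 15 FOXO-linked growth arrest genes 3 were higher and 1 lower at that p, and TXNIP had 0.43 and INSR 0.25 (adjusted p = 0.250 and 0.313). TXNIP passed without RfA1 replicate 2, with 0.55 (adjusted p = 0.00288), and INSR did not (adjusted p = 0.0688).

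**Figure D5:**
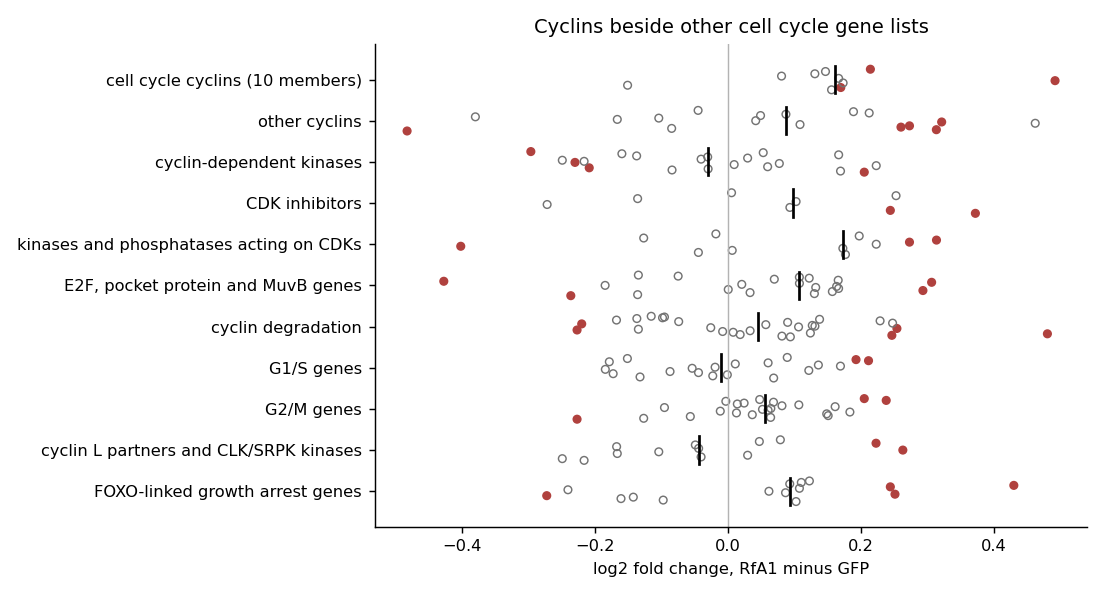
Log2 fold change, RfA1 minus GFP (x axis), of the 10 cyclins and of the genes of 10 other lists (y axis). Each circle is a gene, filled where its unadjusted p from edgeR is under 0.05, and the black bars are list medians. The median of the cyclins is 0.16 and that of the kinases and phosphatases acting on CDKs 0.17. The median of the G1/S genes is -0.010 and that of the G2/M genes 0.056.

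Over the 6 libraries the genes whose log2 CPM profile, centred on its mean, lay nearest to CCNE2 among 12329 others were ZEB2, HAUS3 and ACSM3. Their root mean square differences from CCNE2 were 0.050, 0.060 and 0.062 on the log2 scale, against a spread of CCNE2 itself of 0.25. For CCNL1 they were CDK1, SPCS3 and GZF1, at 0.019, 0.026 and 0.027, against a spread of 0.12.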

How the data were processed

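RNA-seq libraries of HEK-293T cells with GFP (n = 3) or RfA1 (n = 3) were compared, with groups and replicate numbers from the sample labels. For each library the authors deposited estimated counts, which are not normalized and of which 7.39% to 8.02% were not whole, TPM scaled to the same total, and FPKM, which were not used here. The submitters' processing notes name HISAT and GRCh38.p13. The counting tool, strand setting and annotation are not given in the sources used here. Averages over replicates in the table were not used.

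The estimated counts were rounded. Low counts were filtered with filterByExpr (at least 10 in a library and 15 in total), which kept 13002 of 16655 genes. After TMM normalization the groups were compared in edgeR 4.0.16 (R 4.3.3) by its two-sided quasi-likelihood F-test with robust dispersions, and p-values were adjusted by Benjamini-Hochberg over all tested genes, with a threshold of 0.05. Standard errors (SE) were taken from the F statistic. Intervals are at the 95% level. The cyclins and lists were chosen with earlier results of these data known. Of each list the 3 genes with the smallest p were named (2 in lists with under 10 genes), with the partner kinases CDK1, CDK2, CDK4, CDK6, CDK11A and CDK11B and, for the 2 cyclins with the smallest p, the 3 nearest profiles among genes of mean log2 CPM 1 or more. CCNF, CCNL2, CCNJ, CCNB3, RB1 and CDKN2A were named after their values were seen.

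Alternatives were DESeq2 1.42.0, other normalizations and filters, limma-trend (limma 3.58.1) on log2(TPM + 1) or log2(TPM + 0.1), the replicate number as a block, each library left out, and a GC correction. In the last, a spline with 5 degrees of freedom on GC content, from the longest transcript of a gene in GENCODE release 29 (98.3% of genes matched), was fitted library by library and used as an offset. The counts of the lists and the values of their named genes under alternatives were added after the data were seen. No pair of libraries agreed within sampling noise (chi-square per degree of freedom of 1.89 or more). The scripts were tested on simulated data. One of the markers used to check the line is not reported here. Figures were drawn with matplotlib 3.10.9.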

Additional observations from a re-analysis of the deposited data

How the results depend on the processing

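The direction of each of the 10 cyclins held in all 16 alternatives, and 154 of the 160 values of single cyclins stayed on the same side of the threshold. In edgeR's test the 10 genes and 0 cyclins past the adjusted p became 1812 and 3 at an unadjusted p of 0.05. DESeq2 gave 33 genes, upper-quartile normalization 6, no filter on low counts 20, and limma-trend on log2(TPM + 1) and on log2(TPM + 0.1) 4 each, all with 0 cyclins. Of the calls, 80% were higher at the start against 51.5% with DESeq2, 66.7% with upper-quartile normalization, 60% without the filter and 100% with limma-trend. The GC correction gave 192 genes (72.9% higher) and 1 cyclin, CCNE2 (log2 fold change of 0.37). Leaving out 1 library gave 0 to 2636 genes and 0 to 3 cyclins. The highest counts came without RfA1 replicate 2, where CCND3 (-0.29), CCNE2 (0.52) and CCNL1 (0.23) passed. The other 5 libraries gave 0 to 4 genes and 0 cyclins, 1 without GFP replicate 1, 0 without GFP replicate 2 or 3, 2 without RfA1 replicate 1 and 4 without RfA1 replicate 3. Over these fits CCND3 ranged from -0.29 to -0.057, CCNE2 from 0.45 to 0.52 and CCNL1 from 0.18 to 0.24. The other members passed in none of them and ranged from 0.13 to 0.17 for CCND1, 0.14 to 0.21 for CCND2, 0.099 to 0.23 for CCNE1, 0.11 to 0.23 for CCNA2, 0.038 to 0.11 for CCNB1, 0.072 to 0.17 for CCNB2 and 0.057 to 0.22 for CCNG2. The cause of these shifts was not tested.

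Taken around the group means, same-numbered libraries had correlations of 0.166, 0.321 and -0.143, and 3 of 6 libraries correlated best with their own number, so the numbers were not taken as pairs. With the replicate number as a block 625 genes (49.4% higher) and 1 cyclin passed, CCNE2 with 0.49 (adjusted p = 0.00876 in edgeR). With the block and the GC correction 470 genes (64.9% higher) and 1 cyclin passed, again CCNE2, with 0.38 (adjusted p = 0.0153). The block changed no other call of the 10 cyclins. Of the 163 genes of the lists 7 passed as higher and 3 as lower with the block. Those higher were CCNC, CDKN1A, MNAT1, LIN9, FBXW7, CUL1 and TXNIP, and those lower PKMYT1, LIN37 and CDKN2A. CCNE2 and CCNG2 had the fewest counts of the 10, 197 to 310 per library, and the SE was largest for CCND3 and CCNG2, 0.12 each.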
